A study of Rattus norvegicus with 10 samples.

Results

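The comparison described here set cells carrying a cytoplasmic tail mutant of the bone morphogenetic protein receptor BMPR2 against cells carrying wild-type BMPR2, with 2 arrays on each side. The 4 arrays were chosen by the construct each label names, and they are 4 of the 10 arrays in the series. All groups were A7r5 cells, a rat line labelled as vascular smooth muscle, grown in normal oxygen to about 50% confluence in DMEM with 10% serum and stably transfected; the titles of the empty vector arrays call them native cells, while their other labels name empty vector. The wild-type group received human BMPR2, and the CD mutant group received BMPR2 with a change written 2579-2580delT and placed in the cytoplasmic tail. Cells with empty vector and cells with the ED mutant (T354G, placed in the extracellular domain), with 2 arrays each, entered the same fit and supplied part of its estimate of the spread. The 2 arrays of the KD mutant, placed in the kinase domain, were left out of the filter and the fit. The cells keep their own rat Bmpr2 in every group, and nothing in the labels says if both arrays of a construct came from different cultures or clones. The p-values thus reflect only array-to-array spread, some or all of which may be technical.

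BMPR2 is a type II serine/threonine kinase receptor that binds bone morphogenetic proteins (BMPs) together with type I receptors and passes the signal to Smad1, Smad5 and Smad8, which enter the nucleus with Smad4 and raise genes such as the Id family. The receptor has an unusually long tail beyond its kinase domain, which is dispensable for Smad signalling in many assays and binds partners including LIMK1, Tctex-1 and Src. Mutations that truncate this tail are known from heritable pulmonary arterial hypertension, a disease of the small arteries of the lung. The comparison addresses which transcripts differ between cells given the receptor with an altered tail and cells given the wild-type receptor. Each construct was stably transfected, and the labels name no separate lines per construct. An effect of the tail thus cannot be told apart from other differences between the transfected cells.

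No probe set passed the test for a difference between the CD mutant and wild-type BMPR2. Of 19534 probe sets that reached the filter level, a log2 RMA value of 4.90 on at least 2 of the 8 arrays, 0 passed an adjusted p of 0.05 in limma with Benjamini-Hochberg adjustment (0%), and the lowest adjusted p was 0.934. At an unadjusted p under 0.05 there were 1019 probe sets (5.22%), against 976.7 that a uniform distribution of p-values would give, and at an unadjusted p under 0.01 there were 194 against 195.3. Of the 1019, 559 were higher in the CD mutant (2.86% of those tested) and 460 were lower (2.35%). These probe sets are called leaning below, and they are a description of the data, not changes. The values of the CD mutant and wild-type arrays did not overlap for 6716 probe sets (34.4%). With 2 arrays on each side such separation is common, so it is only a description where it is given for a gene below. The count of leaning probe sets rested in part on CD mutant replicate 2: without that array it was 1633, again with 0 past the adjusted threshold and with a lowest adjusted p of 0.277.

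The other comparisons in the same fit did yield calls, with the same number of arrays. The CD mutant differed from the ED mutant at 145 probe sets (0.742%), 56 higher and 89 lower, and from empty vector at 43 (0.22%), 27 higher and 16 lower. The ED mutant differed from wild-type BMPR2 at 55 probe sets (0.282%), 44 higher and 11 lower, and wild-type BMPR2 differed from empty vector at 3 (0.0154%). These comparisons share arrays with the one described here and are given side by side only. Across the 19534 probe sets, the SD of the log2 differences was 0.126 for the CD mutant minus wild type, 0.159 for the ED mutant minus wild type, 0.166 for the CD mutant minus empty vector and 0.173 for the CD mutant minus the ED mutant.

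Arrays of the CD mutant and of wild-type BMPR2 were about as far from each other as from their own replicates. The SD of the log2 difference between a CD mutant array and a wild-type array ranged from 0.162 to 0.187 over the 4 such pairs. It was 0.158 between both wild-type arrays and 0.192 between both CD mutant arrays, so all 4 cross pairs lay between the 2 replicate pairs. CD mutant replicate 2 was closer to wild-type replicate 2 (0.162) than to CD mutant replicate 1. A CD mutant array and an ED mutant array differed with an SD of 0.198 to 0.226, above every replicate pair of the 4 groups in the fit.

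**Figure D1:**
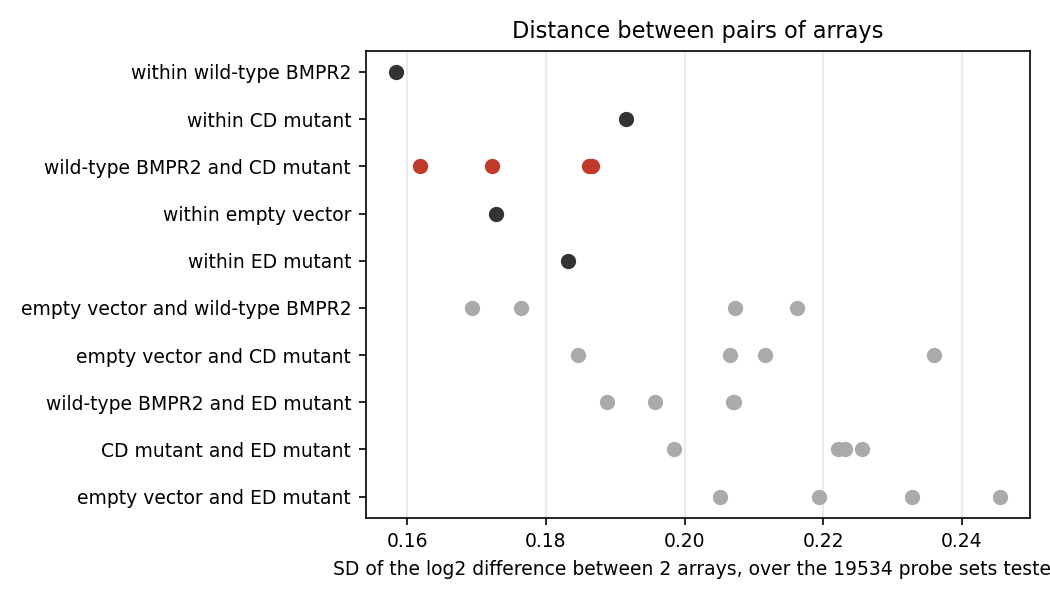
Each point is 1 pair of arrays, placed by the SD of the log2 difference between them over the 19534 probe sets tested, with pairs grouped by construct. The 4 pairs of a wild-type and a CD mutant array (red) sit between 0.162 and 0.187, inside the span of the wild-type replicate pair at 0.158 and the CD mutant replicate pair at 0.192.

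The differences were small as well as uncalled. The median size of the log2 difference was 0.0788, 95% of probe sets differed by less than 0.251 (1.19-fold) and 99% by less than 0.354 (1.28-fold). Only 8 probe sets differed by more than 1.5-fold and 0 by more than 2-fold. Those 8 belonged to Kitlg (both of its probe sets), Tnrc6a, COX1, Eif4e3, Apln, Rps6ka3 and Gcsh. By comparison, both CD mutant arrays differed from each other by more than 1.5-fold at 136 probe sets, and both wild-type arrays at 43, each of these being a difference between single arrays and not between means. Divided by the square root of 2 to match the scale of a difference between means of 2, the replicate differences had an SD of 0.135 in the CD mutant and 0.112 in wild type, on either side of the 0.126 between the groups.

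**Figure D2:**
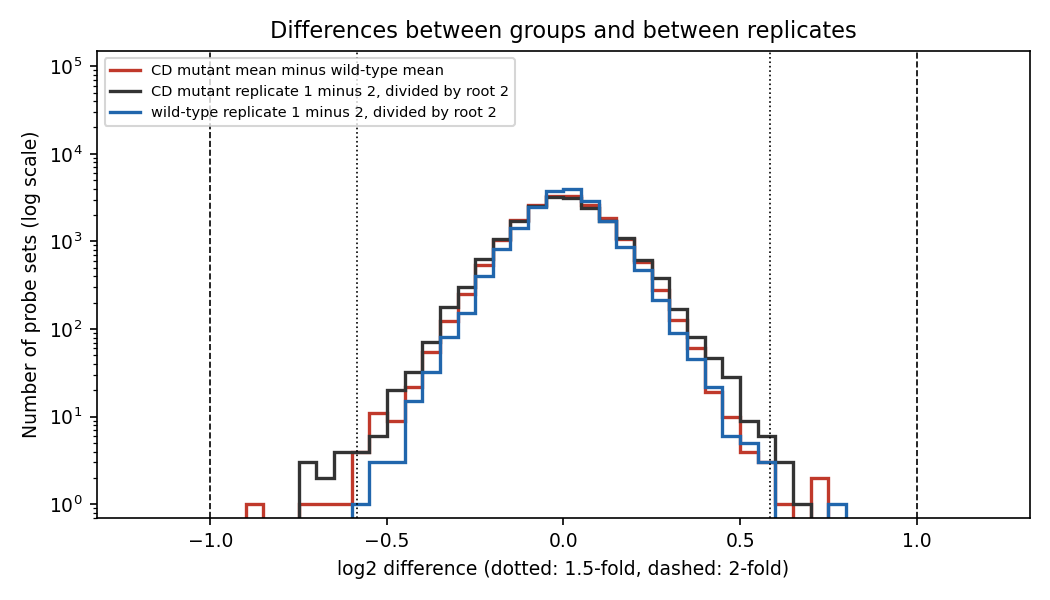
The x axis is the log2 difference and the y axis, on a log scale, the number of the 19534 probe sets in each bin; red is the CD mutant mean minus the wild-type mean, black and blue are the differences between replicates divided by the square root of 2. The red outline (SD 0.126) runs between the black (SD 0.135) and blue (SD 0.112) outlines over most of the range, and no probe set passes the dashed 2-fold lines.

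The intervals show how small a difference had to be to remain compatible with the arrays. Taken 1 probe set at a time, the 95% confidence interval of the difference had a median half-width of 0.234 log2 units (1.18-fold) and lay wholly within 2-fold in either direction for 99.9% of probe sets, all but 13. It lay within 1.5-fold for 96.9%, all but 606. When the intervals were widened to hold for all 19534 probe sets at once, 28.0% lay within 2-fold and 98.8% within 4-fold, leaving 231 for which a larger difference was not bounded. To be called as the only change on the array, a probe set with the median spread would have had to differ by 1.02 log2 units (2.03-fold), and the probe set with the smallest spread by 0.78 (1.72-fold). An observed 2-fold difference of a single gene would have met that mark for 9003 probe sets (46.1%). This is not the rate at which true 2-fold changes would be called, because an observed difference scatters around the true one. A lone observed difference under 1.72-fold could not be called in this fit. RMA may also compress differences at low signal, and its effect on the folds of dim probe sets was not tested.

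The spread was widest in the dimmest probe sets and narrowest in the brightest. In probe sets with a mean below 5 the SD of the differences was 0.154 and 7.63% leaned, whereas at a mean of 10 or more it was 0.0916 and 2.25% leaned. The fall between them was not steady. From a mean of 7 to under 8 the SD was 0.110 and 3.79% leaned, and from 8 to under 10 it was 0.113 and 5.01% leaned. Of the 24 genes with large differences named below, 8 had 1 group mean under the filter level.

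The receptor itself was examined first. Rat Bmpr2 had 2 probe sets on the array, and since the transgene is labelled as human in the wild-type group, rat probes need not detect it and do not check the labels. On the brighter probe set the log2 values were 7.22 and 6.95 with wild-type BMPR2 and 7.21 and 6.85 with the CD mutant, which overlap. The difference was -0.05 (SE 0.14, 95% interval -0.36 to 0.26). On the dimmer probe set the values were 5.30 and 5.33 with wild type and 5.45 and 5.39 with the CD mutant, a difference of 0.11 (SE 0.11) with groups that do not overlap and an unadjusted limma p of 0.334. The empty vector arrays stood at 6.66 and 6.70 on the brighter probe set, and the ED mutant mean was 6.90.

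Among the other receptors and co-receptors of the BMP and TGF-beta family, 0 of 12 measured genes (Bmpr2 included) leaned in either direction, and their median difference was -0.05 against 0.0003 over the 10904 genes tested. Over those genes, each by its brightest probe set, 2.67% leaned higher and 2.11% lower. The largest receptor difference was that of Acvr1c, the type I receptor ALK7, at -0.16 (SE 0.13). The type I receptors for BMPs were close to level: Acvr1 (ALK2) differed by 0.10 (SE 0.12) and Bmpr1a (ALK3) by 0.07 (SE 0.13). The alternative type II receptors Acvr2a and Acvr2b, which also bind BMPs, differed by 0.05 (SE 0.08) and -0.05 (SE 0.11). Tgfbr1, the type I receptor for TGF-beta, differed by -0.06 (SE 0.12), and Tgfbr3 (betaglycan) by -0.05 (SE 0.17). Amhr2, the receptor for anti-Mullerian hormone, differed by 0.02 (SE 0.10). Endoglin (Eng), a co-receptor mutated in hereditary haemorrhagic telangiectasia, differed by -0.09 (SE 0.16). The co-receptors Rgma and Rgmb differed by -0.03 (SE 0.20) and -0.10 (SE 0.16). Of 16 measured BMP, TGF-beta and activin ligands 0 leaned, with a median of -0.02. The ligands with the lowest p were Bmp6 at -0.16 (SE 0.09), Inhbe, an activin subunit, at -0.11 (SE 0.09), and Amh at -0.17 (SE 0.15).

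Of 16 measured Smads and Smad regulators, 0 leaned higher and 1 leaned lower, with a median of 0.03. The exception was Smad7, the inhibitory Smad that blocks receptor access, described with the target genes below. The BMP-activated Smads stood close to level, Smad1 at -0.03 (SE 0.10) and Smad5 at -0.06 (SE 0.13), as did the common partner Smad4 at -0.06 (SE 0.11). Smad2 and Smad3, which carry TGF-beta and activin signals, differed by 0.13 (SE 0.09) and 0.15 (SE 0.10). Smad6, the inhibitory Smad most closely tied to BMP signals, differed by 0.05 (SE 0.09). The ubiquitin ligases Smurf1 and Smurf2 differed by -0.02 (SE 0.09) and 0.08 (SE 0.11). The other regulators, Map3k7 (TAK1), Tab1, Tab2, Zfyve9 (SARA), Ppm1a, Skil and Tob1, ranged from -0.10 for Zfyve9 to 0.14 for Map3k7.

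Of 16 measured BMP target genes, 0 leaned higher and 3 leaned lower, namely Id2, Smad7 and Bambi. Their median difference was -0.01. That median depended on single arrays: leaving out replicate 2 of wild type gave -0.12, and leaving out its replicate 1 gave 0.04. None of the 3 passed the adjusted threshold.

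The 250 bases upstream of the annotated start of those 3 genes are shown, because Smad proteins bind short DNA elements and these are the BMP targets that leaned in the same direction. They come from RefSeq on the rat build GRCr8, read 5′ to 3′ on the gene's strand. Capitals mark GTCT or its reverse complement AGAC, the Smad box, and GGCGCC, a GC-rich element bound by Smad1 and Smad5; both strands were searched, and the palindrome GTCTAGAC, which contains the Smad box, was searched as well.
Id2, chr6:47470996-47471245, minus strand: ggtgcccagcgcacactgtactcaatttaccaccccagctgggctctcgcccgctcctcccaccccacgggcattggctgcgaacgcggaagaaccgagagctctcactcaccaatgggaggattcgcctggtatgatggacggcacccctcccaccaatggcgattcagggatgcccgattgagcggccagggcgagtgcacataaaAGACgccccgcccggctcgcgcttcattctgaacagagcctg
Smad7, chr18:71263258-71263507, plus strand: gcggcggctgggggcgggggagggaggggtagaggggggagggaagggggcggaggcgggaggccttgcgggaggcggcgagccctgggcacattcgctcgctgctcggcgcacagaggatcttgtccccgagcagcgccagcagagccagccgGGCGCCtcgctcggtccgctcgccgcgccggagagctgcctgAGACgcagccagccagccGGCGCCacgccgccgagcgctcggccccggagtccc
Bambi, chr17:58821004-58821253, minus strand: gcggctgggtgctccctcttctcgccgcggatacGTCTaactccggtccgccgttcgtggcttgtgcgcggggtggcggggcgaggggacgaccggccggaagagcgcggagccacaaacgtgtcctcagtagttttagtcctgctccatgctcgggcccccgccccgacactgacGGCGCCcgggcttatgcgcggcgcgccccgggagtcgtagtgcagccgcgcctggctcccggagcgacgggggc
Each window holds 1 Smad box. GGCGCC occurs in 2 places before Smad7, in 1 before Bambi and in 0 before Id2, and GTCTAGAC in 0 of the 3. Over 27457 rat promoter windows of the same length, 83.9% hold a Smad box, 9.24% hold GGCGCC and 0.186% hold GTCTAGAC. Of 13 measured BMP targets with a window, 12 hold a Smad box and 3 hold GGCGCC. A match is a run of letters and not a binding site.

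Id2 encodes a helix-loop-helix inhibitor of differentiation. Its log2 values were 10.85 and 10.72 with wild-type BMPR2 and 10.42 and 10.49 with the CD mutant, so both CD mutant arrays were below both wild-type arrays. The difference was -0.33 (SE 0.09, 1.26-fold, adjusted p = 0.934 in limma). The second Id2 probe set gave -0.25 (SE 0.09). The other groups were higher than both, with means of 11.19 for empty vector and 11.06 for the ED mutant. The CD mutant minus empty vector was -0.73 (adjusted p = 0.0255 in limma) and wild type minus empty vector -0.40 (adjusted p = 0.214), 2 values that share the empty vector arrays.

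Smad7 read 6.53 and 6.42 with wild type and 6.09 and 6.26 with the CD mutant, a difference of -0.30 (SE 0.09). The groups did not overlap on this probe set, but another Smad7 probe set gave -0.02 (SE 0.11). Bambi, a decoy receptor that lacks a kinase, read 6.18 and 6.10 with wild type and 5.85 and 5.75 with the CD mutant. Its difference was -0.34 (SE 0.14), and the groups did not overlap.

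The other Id genes were closer to level than Id2. Id1 read 10.61 and 10.41 with wild type and 10.46 and 10.42 with the CD mutant, overlapping groups with a difference of -0.07 (SE 0.09, 95% interval -0.28 to 0.14). Id3 read 8.93 and 8.62 against 8.80 and 8.77, a difference of 0.01 (SE 0.13), and Id4 differed by -0.07 (SE 0.12). The Id3 mean of empty vector, 9.60, was above both groups: the CD mutant minus empty vector was -0.81 (adjusted p = 0.0440 in limma) and wild type minus empty vector -0.82 (adjusted p = 0.103). Hey1, a target shared with Notch, was the largest positive difference among the targets at 0.24 (SE 0.13), but it was 0.05 without CD mutant replicate 1 and 0.44 without CD mutant replicate 2. The remaining targets, Msx2, Hes1, Smad6, Stc1, Atoh8, Cdkn1a, Junb, Gata2 and Snai1, lay between -0.05 and 0.10. For 15 of the 16 targets the 95% interval stayed within 1.5-fold, Bambi being the exception.

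**Figure D3:**
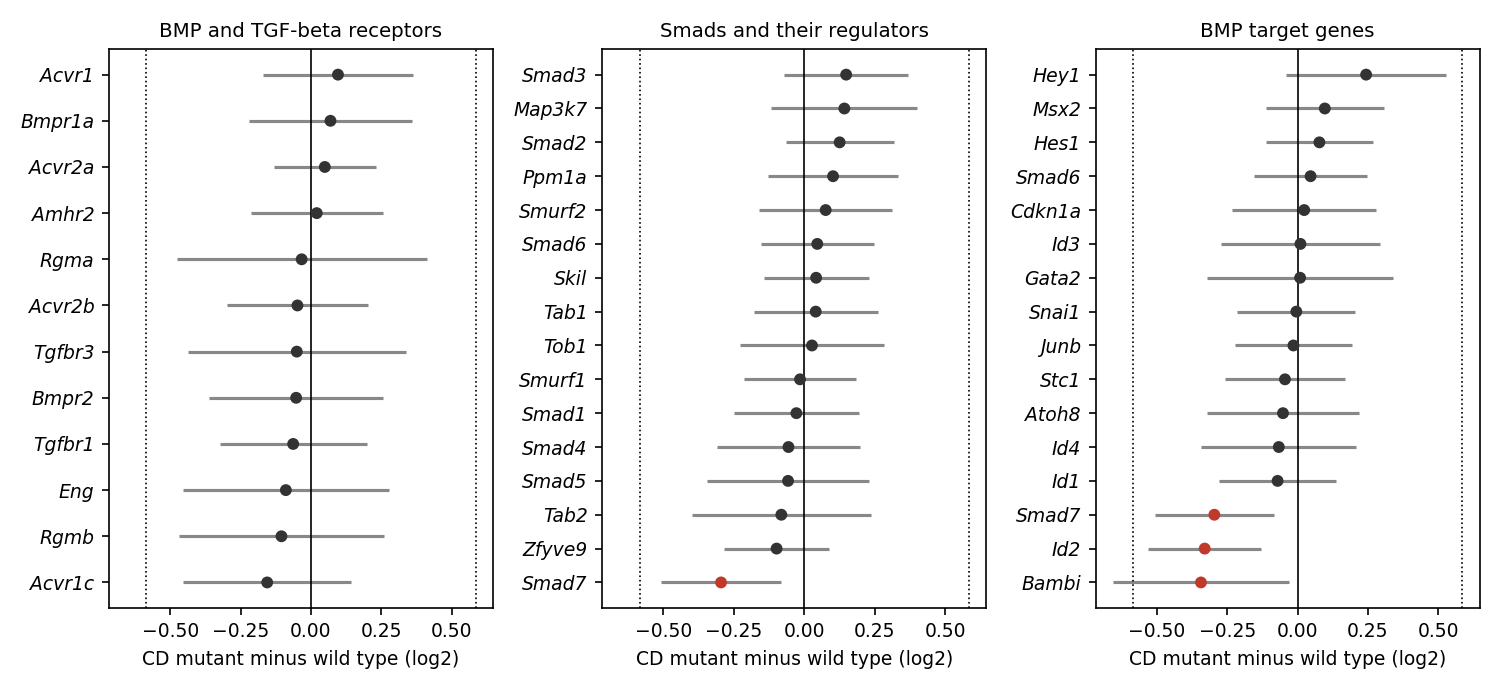
Each point is 1 gene's log2 difference, CD mutant minus wild-type BMPR2, and each line its 95% confidence interval from the fit of 8 arrays; panels show receptors, Smads with their regulators, and BMP target genes, and dotted lines mark 1.5-fold. Red marks an unadjusted p under 0.05, which holds for Smad7, Id2 and Bambi, all lower and none past the adjusted threshold.

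Known partners and effectors of the BMPR2 tail did not lean, 0 of 15 measured, with a median of -0.01. Limk1, the kinase that the tail binds and that inactivates cofilin, read 5.87 and 6.11 with wild type and 6.14 and 6.21 with the CD mutant, a difference of 0.19 (SE 0.11). The groups for Limk1 were apart by a narrow margin. Trib3, a pseudokinase released from the receptor on BMP stimulation, differed by -0.19 (SE 0.09), and Ssh2, a cofilin phosphatase, by 0.15 (SE 0.10).

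The largest leaning differences were taken by a rule: the 12 genes most above and the 12 most below zero among probe sets that name 1 gene, with an unadjusted p under 0.05, groups that did not overlap, and the higher group mean at or above the filter level. The pools that met these conditions held 394 genes on the higher side and 320 on the lower side. Since the genes were chosen for their differences, the values below describe these arrays and support nothing beyond them. On the higher side they ranged from 0.47 to 0.74 on the log2 scale and on the lower side from -0.48 to -0.87. In 15 of the 24 genes the CD mutant and wild-type means were the extremes of the 4 groups in the fit, in 8 the CD mutant alone was an extreme, and in 1, Smchd1, wild type alone.

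Kitlg, which encodes stem cell factor, the ligand of the Kit receptor, had the largest difference. Its log2 values were 6.58 and 5.98 with wild-type BMPR2 and 5.63 and 5.21 with the CD mutant. Both CD mutant arrays were below both wild-type arrays. The difference was -0.87 (SE 0.19, 1.82-fold, 95% interval -1.30 to -0.43, adjusted p = 0.934 in limma). The second Kitlg probe set read 8.07 and 7.52 with wild type and 7.24 and 6.93 with the CD mutant, a difference of -0.71 (SE 0.20). The empty vector arrays, at 5.43 and 5.58 on the first probe set, stood among the CD mutant arrays, and the ED mutant arrays, at 6.09 and 5.87, overlapped the wild-type arrays. Leaving out 1 array at a time moved the first value between -1.16 and -0.57.

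Ccl2, the monocyte chemoattractant MCP-1, had the lowest p of all probe sets tested (adjusted p = 0.934 in limma). It read 7.50 and 7.38 with wild type and 6.80 and 6.94 with the CD mutant, a gap well beyond the spread within each pair. The difference was -0.57 (SE 0.09, 1.48-fold, 95% interval -0.77 to -0.37). With empty vector it read 8.88 and 8.84, above all others, and with the ED mutant 7.48 and 7.49, at the level of wild type. Ccl2 differed from empty vector by -1.42 with wild type (adjusted p = 0.000674 in limma) and by -1.99 with the CD mutant (adjusted p = 2.8e-05).

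Flrt3, a leucine-rich membrane protein of cell adhesion and FGF signalling, read 7.65 and 7.58 with wild type and 7.02 and 7.20 with the CD mutant, a difference of -0.51 (SE 0.11). The ED mutant arrays stood at 8.37 and 8.51, on the other side of wild type, so that the CD mutant minus the ED mutant was -1.33 (adjusted p = 0.00153 in limma). Eif4e3, a cap-binding protein of the translation machinery, read 6.52 and 6.22 with wild type and 5.68 and 5.69 with the CD mutant, a difference of -0.69 (SE 0.16). Rps6ka3, the kinase RSK2, differed by -0.60 (SE 0.22) on 1 probe set and by -0.17 and -0.16 on the others. The other negative differences came from Asic1, an acid-sensing channel (-0.56, with 0.07 and -0.08 on its other probe sets), Coa4, a cytochrome oxidase assembly factor (-0.55), Vkorc1l1, a vitamin K epoxide reductase (-0.55), Smchd1, a chromatin protein of X inactivation (-0.51), Ppcs, an enzyme of coenzyme A synthesis (-0.50), Prss8, the protease prostasin (-0.48), and Tmed4, a cargo receptor between the endoplasmic reticulum and Golgi (-0.48).

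On the higher side, Tnrc6a, a scaffold of microRNA silencing, read 4.41 and 4.26 with wild type and 5.06 and 5.10 with the CD mutant, a difference of 0.74 (SE 0.12, 1.68-fold). Its wild-type mean was under the filter level. A far brighter Tnrc6a probe set, at a mean of 10.6 with wild type, gave -0.09 (SE 0.09), so the probe sets disagreed. COX1, a subunit of cytochrome c oxidase encoded in the mitochondrial genome, differed by 0.71 (SE 0.21) on a dim probe set whose wild-type arrays read 4.74 and 4.34.

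Apln, which encodes the vasoactive peptide apelin, read 5.93 and 5.82 with wild type and 6.59 and 6.40 with the CD mutant. The groups did not overlap, and the difference was 0.62 (SE 0.12, 1.54-fold). The empty vector arrays read 6.16 and 5.83 and the ED mutant arrays 5.46 and 5.43, all below the CD mutant arrays. The other Apln probe set gave -0.02 (SE 0.10). Aplnr, the apelin receptor, was chosen after its value was seen and differed by -0.02 (SE 0.14).

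Adarb1, an enzyme that edits adenosine to inosine in RNA, read 7.79 and 7.79 with wild type and 8.26 and 8.29 with the CD mutant, a difference of 0.49 (SE 0.10) between tight pairs. Its other probe sets gave 0.03 and -0.01. Myh3, the embryonic myosin heavy chain of skeletal muscle, read 7.12 and 6.85 with wild type and 7.49 and 7.46 with the CD mutant, a difference of 0.49 (SE 0.11). Lamb1, the laminin beta 1 chain of basement membranes, read 6.52 and 6.66 with wild type and 6.92 and 7.21 with the CD mutant, a difference of 0.48 (SE 0.15). The rest of the higher side was Gcsh, of the glycine cleavage system (0.59), Ccdc25 (0.56, with -0.22 on a brighter probe set), Gad1, which makes GABA (0.53), Fabp12, a fatty acid binding protein (0.53), Myo9a, an unconventional myosin (0.48), and Znrf2, a ubiquitin ligase (0.47).

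Of the 24 genes, 9 had further probe sets among those tested, 13 in all. Of these 13, 8 had the sign of the named probe set and 1 leaned with it, that of Kitlg. The rule required groups that did not overlap, so leaving out 1 of the 4 arrays could not change a sign. It moved 10 of the 24 by more than 1.5 times: Gcsh, Gad1, Fabp12, Myo9a, Kitlg, Rps6ka3, Coa4, Smchd1, Ppcs and Tmed4. The widest such range was that of Tmed4, from -0.76 to -0.20.

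**Figure D4:**
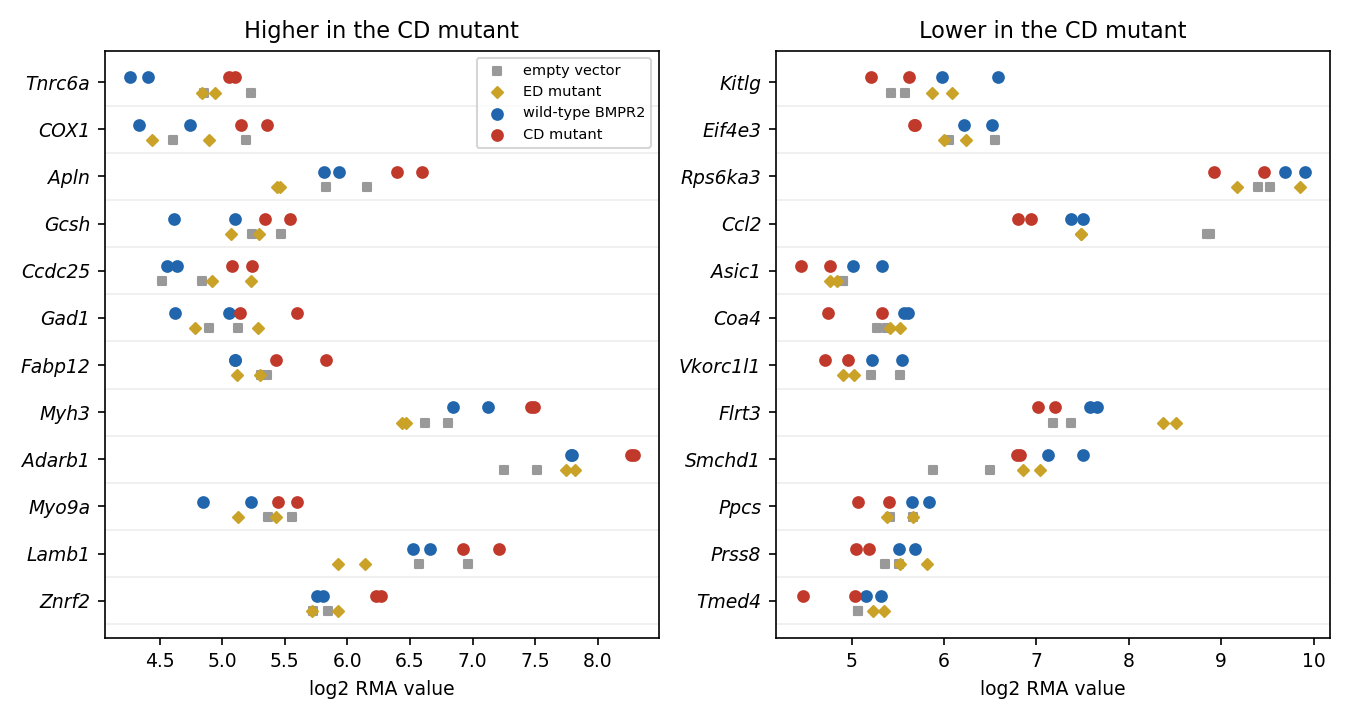
Each row is 1 gene and each point the log2 RMA value of 1 array, for the 12 genes most above (left) and the 12 most below wild type (right) under the selection rule; circles are wild-type BMPR2 (blue) and CD mutant (red), squares empty vector and diamonds the ED mutant. The red and blue points are apart in every row because the rule required it; Ccl2 is the row where empty vector (8.88 and 8.84) stands far from all other arrays, and Flrt3 the row where the ED mutant (8.37 and 8.51) does.

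Across 33 gene lists with 782 distinct genes, 565 genes had a probe set tested. Of these 0 changed, 12 leaned higher and 11 leaned lower, and every one of their 95% intervals lay within 2-fold. Over all 10904 genes tested, 291 leaned higher (2.67%) and 230 leaned lower (2.11%), and the counts per list below are read beside these shares. The total of 23 leaning members became 46 without CD mutant replicate 2.

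Among chemokines, cytokines and NF-kB genes, 0 of 25 leaned higher and 2 leaned lower, Ccl2 and Ccl20. Ccl20, a chemokine for cells bearing CCR6, read 7.38 and 7.25 with wild type and 7.01 and 7.07 with the CD mutant, a difference of -0.28 (SE 0.09). Like Ccl2 it was highest with empty vector, at a mean of 8.13, but the ED mutant mean was also above wild type, by 0.69 (adjusted p = 0.0203 in limma). Csf1, the macrophage growth factor, differed by 0.21 (SE 0.11). The median of the list was -0.01.

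Among vasoactive peptides, their receptors and prostanoid enzymes, 1 of 25 leaned higher, Apln, and 2 leaned lower. Ptger4, a receptor for prostaglandin E2, read 5.72 and 5.77 with wild type and 5.53 and 5.43 with the CD mutant, a difference of -0.26 (SE 0.09). Ptgis, prostacyclin synthase, differed by -0.24 (SE 0.10). Smooth muscle contractile genes did not lean, 0 of 17, with a median of -0.01. Csrp1, a LIM protein of smooth muscle, differed by -0.18 (SE 0.09), Acta2, smooth muscle actin, by -0.12 (SE 0.10) and Tagln (SM22) by 0.12 (SE 0.11). Potassium and calcium channels had 0 of 17 leaning, with Pln, phospholamban, at -0.23 (SE 0.11).

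Extracellular matrix genes had 2 of 35 leaning higher and 0 lower, with a median of 0.02. Besides Lamb1 these were Col8a1, a short-chain collagen of vessel walls, at 0.27 (SE 0.09). Col4a1, a basement membrane collagen, differed by 0.19 (SE 0.10). Immediate early genes had 2 of 27 leaning higher, Myc at 0.27 (SE 0.09) and Egr1 at 0.29 (SE 0.11), and 0 lower. Egr1, a transcription factor induced by serum, read 6.55 and 6.74 with wild type and 6.92 and 6.97 with the CD mutant, so its groups did not overlap. In the interferon response list 1 of 18 leaned, Parp12, an antiviral ADP-ribosyltransferase. It read 6.46 and 6.63 with wild type and 6.87 and 7.03 with the CD mutant, a difference of 0.40 (SE 0.10). The empty vector mean of Parp12 was 6.14 and the ED mutant mean 7.24, on either side of both groups.

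Of the growth and stress lists, cell cycle and DNA replication had 1 of 28 leaning, the helicase subunit Mcm4 at 0.25 (SE 0.11), while 21 of the 28 differences were below zero with a median of -0.05. The related subunits Mcm7 and Mcm6 differed by -0.17 (SE 0.08) and -0.24 (SE 0.14). Among p53 targets 1 of 22 leaned, Mdm2, the ligase that degrades p53, at -0.32 (SE 0.12). Heat shock proteins had 1 of 12, Hspb8 at -0.22 (SE 0.10), and chaperones and endoplasmic reticulum stress genes 1 of 25, Sel1l at 0.22 (SE 0.10). Wnt and Notch signalling had 1 of 27, Wnt11 at 0.23 (SE 0.09).

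In 9 further lists 0 genes leaned: BMP and activin antagonists (0 of 9), genes of heritable pulmonary arterial hypertension (0 of 6), NRF2 antioxidant genes (0 of 23), metallothioneins and zinc transport (0 of 7), hypoxia and glycolysis (0 of 28), oxidative phosphorylation (0 of 31), growth factors and their receptors (0 of 26), and cholesterol synthesis with ribosomal proteins, which follow. The medians of the first 7 ran from -0.05 for oxidative phosphorylation to 0.05 for hypoxia and glycolysis. In cholesterol synthesis 17 of 20 differences were below zero and the median was -0.08. The member with the lowest p was Mvd, a mevalonate pathway enzyme, at -0.22 (SE 0.11). In cytoplasmic ribosomal proteins 19 of 22 were below zero with a median of -0.06, and Rpl22 and Rpl18 differed by -0.12 (SE 0.08) and -0.11 (SE 0.08). Bright probe sets as a whole sat on the same side: at a mean of 10 or more 61.5% of differences were below zero with a median of -0.02, against a median of 0.0016 over all probe sets. Both lists kept a negative median under quantile normalization, median centring and each array left out, with ranges of -0.11 to -0.07 for cholesterol synthesis and -0.06 to -0.02 for ribosomal proteins.

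**Figure D5:**
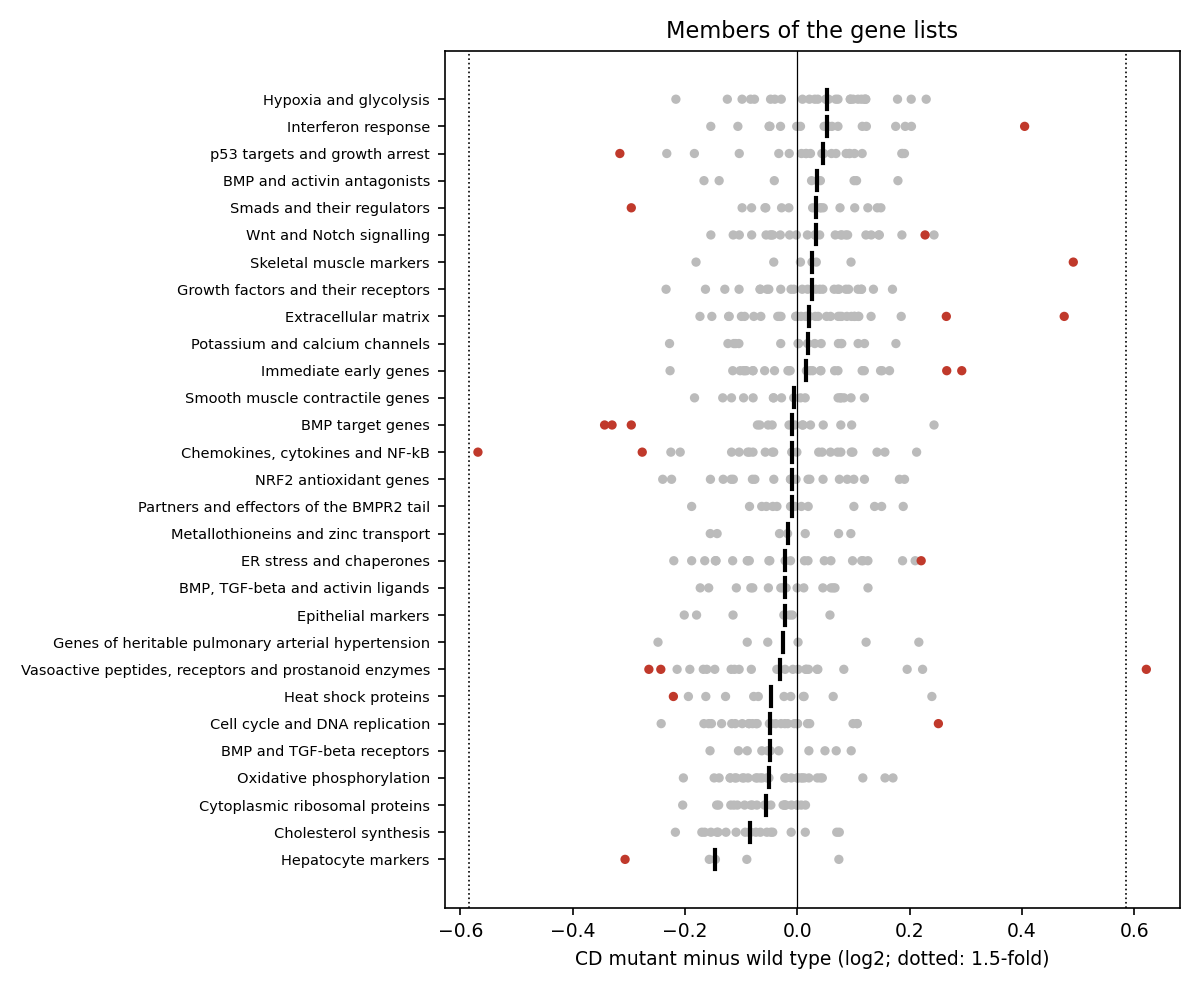
Each row is 1 gene list with at least 5 measured members (1 list is not shown), each point the log2 difference of 1 member (CD mutant minus wild-type BMPR2) and each black bar the list's median; red marks an unadjusted p under 0.05 and dotted lines 1.5-fold. All points except Apln lie inside the dotted lines, and all list medians shown lie between -0.15 and 0.05.

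Markers of cell identity and control transcripts were compared in the same arrays. Of 23 smooth muscle genes on the array 15 had a mean at or above the filter level. Tpm1, Smtn and Cald1 were bright, Acta2 stood at 6.26 and Tagln (4.98) was dim. Under the filter level were Synpo2 (4.88), Kcnmb1 (4.79), Actg2 (4.66), Cnn1 (4.39), Itga8 (4.33), Myocd (4.26), Ppp1r12b (4.12) and Lmod1 (3.86). The epithelial genes Krt18 (11.5), Cdh1 (9.71), Krt19 (9.41) and Krt8 (8.53) were bright in a line labelled as smooth muscle. The other epithelial genes ranged from Cldn3 (6.66) and Ocln (5.64) through Cldn7 (5.07) and Esrp1 (4.996) down to Epcam (3.78) and Cldn4 (3.36), the last pair under the filter level, and 4 of 10 stood above the 80th percentile of all probe sets. The mean level of the smooth muscle list was 6.53 and 6.48 with wild type and 6.50 and 6.43 with the CD mutant. That of the epithelial list was 6.82 and 6.86 against 6.78 and 6.78, and Krt19, Krt8 and Krt18 differed by -0.18, -0.20 and -0.11, 0 of 8 members leaning. Of the other marker lists, Thy1 (fibroblast, 1 of 4 leaning) differed by 0.26, Myh3 (skeletal muscle, 1 of 7) by 0.49 and Fgb (hepatocyte, 1 of 5) by -0.31, with 0 of 4 leukocyte and 0 of 1 endothelial genes leaning. The poly-A control transcripts stood apart; these are bacterial RNAs spiked in before labelling. Their 24 probe sets averaged 7.49 and 8.34 on the wild-type arrays and 8.56 and 8.62 on the CD mutant arrays, 0.67 higher in the CD mutant (0.25 without wild-type replicate 1, 1.10 without wild-type replicate 2) and apart at 23 of the 24. Of the 19534 probe sets tested, 3439 were higher and apart. Several of the 24 report the same spiked RNA, so they are not separate observations. The part of the poly-A controls in the leaning differences was not tested.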

How the data were processed

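Biotin-labelled total RNA was run on Affymetrix rat arrays of 1 colour, per the labels. The deposited values are log2 RMA summaries per probe set (RMA is named in the submitters' processing notes, without a version), and it is not stated if the arrays were summarised in 1 run. The values were used as deposited. Of 31099 probe sets, 57 controls were left out and 19534 at or above the 40th percentile of all values on at least 2 of 8 arrays were kept. Group means of 4 groups were estimated by limma 3.58.1 under R 4.3.3 (lmFit and eBayes, 4 residual degrees of freedom) and the CD mutant minus wild type was tested with Benjamini-Hochberg adjustment at 0.05; the fit was tested on simulated data. Genes came from the platform annotation (20826 probe sets with 1 gene, 436 with several, 9780 with none), updated through RefSeq GRCr8 for 20758. A gene in a list is its brightest probe set; the named genes are Bmpr2, all receptors, Smads and BMP targets measured, up to 3 members with the lowest p of every other list, and the 12 largest differences on each side as defined in the text. The members of 1 list are counted in the totals over lists but not reported here. The genes and lists were chosen with earlier results of these data known. The number of arrays limits the precision.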

Additional observations from a re-analysis of the deposited data

Results flagged for a closer look

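For 15 of the 148 genes taken by the naming rule, the difference of the CD mutant from wild type was unlike that of the ED mutant from wild type, by the test of the CD mutant minus the ED mutant in the same fit (adjusted limma p from 0.00153 to 0.0429). Over all probe sets tested, 145 of 19534 (0.742%) passed the same test. The genes and lists were chosen with earlier results of these data known, so these shares cannot be compared. The wild-type arrays cancel in that test. Of the 15, 10 were lower in the CD mutant than in the ED mutant, with log2 differences in brackets: Flrt3 (-1.33), Hpx (-1.18), Fgb (-0.97), Ccl20 (-0.96), Aqp1 (-0.91), Krt19 (-0.72), Krt8 (-0.67), Ccl2 (-0.61), Id2 (-0.60) and Krt18 (-0.52). The other 5 were higher: Myc (0.59), Fst (0.67), Myh3 (1.02), Lamb1 (1.03) and Apln (1.05). Of the 15, 5 (Flrt3, Ccl2, Myh3, Lamb1 and Apln) were also named for large differences between the CD mutant and wild type, and list members were named for a low p there. The test uses the same CD mutant arrays, so for such genes it leans toward a call. In 12 of the 15 the ED mutant stood farther from wild type than the CD mutant did. The exceptions were Apln, Ccl2 and Id2, which differed from wild type by 0.62, -0.57 and -0.33 in the CD mutant and by -0.43, 0.04 and 0.27 in the ED mutant.

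The poly-A control transcripts, which belong to no comparison, were higher on the CD mutant arrays than on the wild-type arrays by 0.67 on the log2 scale over 24 probe sets. The size rested on the wild-type arrays, which read 7.49 and 8.34: leaving out the first of them gave 0.25, and leaving out the second gave 1.10. The empty vector arrays read 8.02 and 7.76, and the ED mutant arrays 8.24 and 8.28. The hybridization controls differed by 0.09, with 12 of 18 probe sets higher and apart, beside 3439 of the 19534 probe sets tested. In both control sets several probe sets report the same spiked RNA and are not separate observations.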

How the results depend on the processing

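No probe set passed the adjusted threshold in any of the alternatives run: all probe sets kept, a stricter filter (60th percentile), quantile normalization, median centring, an intensity trend with robust variance, a replicate block, the 4 arrays alone, all 10 arrays, genes in place of probe sets, each of the 4 arrays left out, and adjusted p limits of 0.1 and 0.25. The limits of 0.1 and 0.25 were applied only to the main fit, where the lowest adjusted limma p was 0.934. Among the refits the lowest was 0.123, with the intensity trend. That refit held probe sets under 0.25, among them Ccl2 (0.123), Adarb1 and Flrt3 (0.199 each), and Tnrc6a, Apln and Kitlg (0.241 each). The count of leaning probe sets, 1019, was 1532 with no filter (31042 tested), 623 with genes in place of probe sets (10904 tested) and 194 at an unadjusted p under 0.01. The first and last follow from more features tested and a stricter limit. The refit on genes changed the variance estimate as well as the number of features: in the fit of all probe sets, the same 10904 genes held 521 that leaned. Leaving out 1 array gave 768 to 1633, and the leaning list members, 23, were 16 to 46; the highest of both came without CD mutant replicate 2, and the cause was not tested. Without wild-type replicate 1, 61.8% of leaning probe sets were higher, against 54.9% with all arrays, and without CD mutant replicate 2, 47.5%.

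The deviations of same-numbered replicates from their group means correlated with r = 0.05 for the CD mutant and wild type. For the CD mutant, r was -0.04 with empty vector and 0.16 with the ED mutant. For wild type, r was 0.02 with empty vector and 0.05 with the ED mutant. With 2 arrays per group these values cannot decide if the numbers pair the arrays. With the replicate number as a block, 0 probe sets passed and 1109 leaned. The 24 largest leaning genes kept their sign in 240 of 240 values over 10 settings, and none passed. Most of these settings could not change a sign, so the count does not show stability. The intensity trend, the replicate block and refits that changed only the arrays outside the comparison left each difference as it was. With an array left out, the selection rule fixed the sign. Only quantile normalization and median centring could have reversed one. Over the other 125 named probe sets, 1174 of 1250 values moved by less than 1 SE, and the 76 that moved farther came from leaving out an array. The 1250 include the values of refits that could not change a difference, so their share overstates stability. List medians moved by less than the members' median SE in 209 of 210 values; the exception was the BMP targets without wild-type replicate 2 (-0.12). In the fit reported, a lone observed difference under 1.72-fold could not be called. The median difference needed was 1.02 there and 0.83 with the intensity trend.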
